A study of Bos indicus and Bos indicus x Bos taurus and Bos taurus with 6 samples.

Results

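CIRBP, RBM3, YBX1 and YBX3 are the genes of RNA-binding proteins grouped as cold shock proteins, and they were chosen by gene symbol as 4 of the 21698 genes in a count table of cattle whole blood. Blood was drawn from the jugular vein of adult, non-pregnant, non-lactating cows on a university farm in Malaysia at a temperature-humidity index of 44.68, and RNA was sequenced. The groups were Kedah-Kelantan (Bos indicus, an indigenous tropical breed labelled heat-tolerant), Brangus (a Bos indicus and Bos taurus composite labelled intermediate) and Holstein Friesian (Bos taurus, a temperate breed labelled heat-vulnerable), with 2 biological replicates each. Every cow was sampled under the same heat load, with no cool or unstressed group, so the comparisons ask how the breeds differ under heat and not how any breed responds to it. How the index was calculated is not given in the sources used here, and on commonly used scales its value lies under those counted as heat stress, so the heat load is taken from the labels and not from the index. All animals together were aged 4.5 ± 1.2 years and weighed 450 ± 15 kg, per the labels. The number of animals per breed is stated as 4, and since nothing ties them to the 2 libraries, p-values measure the spread between libraries.

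Mammalian cells cooled by a few degrees make less of most proteins but more of a small set of cold shock proteins, and CIRBP and RBM3 are the best known of these. Both carry an RNA recognition motif followed by a glycine-rich tail, bind messenger RNA and are known from cultured human and mouse cells to fall in abundance when the temperature rises. YBX1 and YBX3 carry the cold shock domain, a nucleic acid-binding fold shared with bacterial cold shock proteins. They package messenger RNA and control its translation, and their name comes from the domain and not from induction by cold in mammals.

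Library totals ranged from 25275377 to 28668857 counts. The 2 Holstein Friesian libraries stood apart from each other. Over 7592 well-expressed genes (mean log2 CPM of at least 4, where CPM is the count relative to the library size, scaled by TMM), the median absolute log2 difference between replicates was 0.12 between the Kedah-Kelantan libraries, 0.16 between those of Brangus and 0.47 between those of Holstein Friesian. Results against Holstein Friesian are therefore given with and without each of its libraries. In bulk blood, fewer cells of a type and less RNA per cell cannot be told apart.

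All 4 genes were well expressed in every library, and YBX1 was by far the most abundant. On the deposited per-length scale (FPKM), which allows genes to be compared, YBX1 was at 393 ± 24.3 FPKM in Kedah-Kelantan, 444 ± 12.1 FPKM in Brangus and 453 ± 62.4 FPKM in Holstein Friesian (mean ± SD, n = 2 each, as throughout). It ranked 170 of 21698 genes by mean FPKM. RBM3 came next at 62.1 ± 0.269 FPKM in Kedah-Kelantan, 75.9 ± 0.212 FPKM in Brangus and 66.9 ± 48.3 FPKM in Holstein Friesian. YBX3 was at 40.1 ± 3.1, 39.1 ± 4.65 and 40.9 ± 11.2 FPKM in the same breed order, and CIRBP was at 41.4 ± 0.445, 33.2 ± 1.6 and 28.6 ± 14.2 FPKM. YBX3 and CIRBP were within their spread of each other in Kedah-Kelantan and in Holstein Friesian, and in Holstein Friesian the wide spread of RBM3 overlapped both. The gene lengths implied by the FPKM values were 3322 bases for CIRBP, 1625 for RBM3, 1533 for YBX1 and 2022 for YBX3. The order of CIRBP and RBM3 in Kedah-Kelantan depends on these lengths, since by CPM CIRBP was the higher there (125 against 91.6). Counting error was small beside the Holstein Friesian spread of CIRBP and RBM3. The lowest count of any of the 4 genes was 1494 for RBM3 in Holstein Friesian replicate 2, whose exact 95% Poisson interval was 54.0 to 59.8 CPM.

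**Figure D1:**
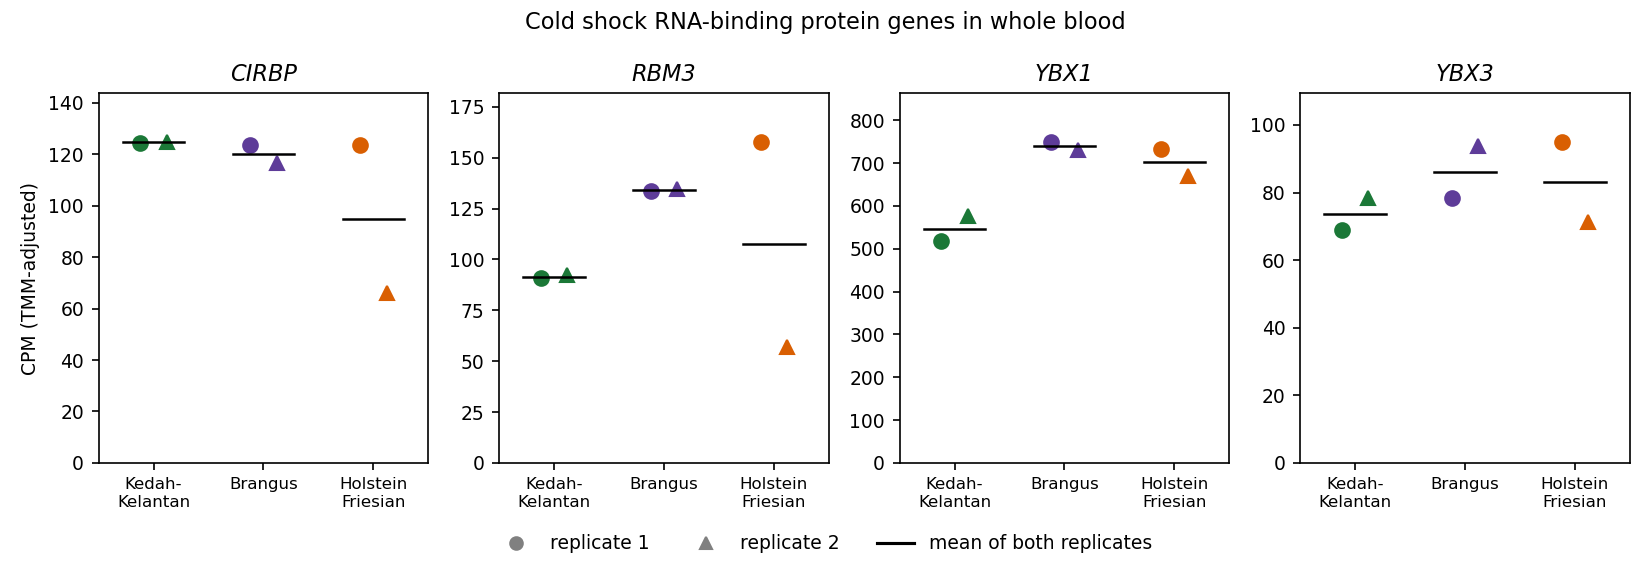
CPM of CIRBP, RBM3, YBX1 and YBX3 (vertical axes, each from 0) in each of the 6 libraries, by breed on the horizontal axis; circles are replicate 1, triangles replicate 2 and bars the mean of both. CIRBP and RBM3 sit close together within Kedah-Kelantan and within Brangus, while the Holstein Friesian replicates are 1.87-fold apart for CIRBP and 2.78-fold apart for RBM3.

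CIRBP, cold-inducible RNA-binding protein, lies on chromosome 7 (43707444 to 43712194, plus strand, in the authors' coordinates). Its level was 124 and 125 CPM in Kedah-Kelantan, 123 and 117 CPM in Brangus and 124 and 66.0 CPM in Holstein Friesian, replicate 1 first. Holstein Friesian replicate 2 was the low library, and the other 5 lay between 117 and 125 CPM.

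RBM3, RNA-binding motif protein 3, lies on chromosome X (86690789 to 86694645, plus strand). It had 91.0 and 92.2 CPM in Kedah-Kelantan, 134 and 135 CPM in Brangus and 158 and 56.8 CPM in Holstein Friesian. The 2 Holstein Friesian libraries were the highest and the lowest of the 6, and every Kedah-Kelantan and Brangus library fell between them.

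YBX1, Y-box binding protein 1, lies on chromosome 3 (103520069 to 103539604, minus strand). It had 518 and 576 CPM in Kedah-Kelantan, 750.2 and 729.6 CPM in Brangus and 734 and 670.2 CPM in Holstein Friesian. Both Kedah-Kelantan libraries were lower than the other 4, and the Brangus and Holstein Friesian libraries overlapped.

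YBX3, Y-box binding protein 3, lies on chromosome 5 (98853392 to 98879065, plus strand). It had 68.9 and 78.4 CPM in Kedah-Kelantan, 78.3 and 93.7 CPM in Brangus and 95.1 and 71.3 CPM in Holstein Friesian. No breed was separated from another for YBX3. None of the 4 genes overlaps another gene of the table. The table also lists a YBX1-like gene (LOC132344325) and a YBX3-like gene (LOC101906359), both on chromosome X, with 0 counts in all 6 libraries. Genes of this kind often have processed copies elsewhere in a genome, so some uncertainty in read assignment remains for YBX1, YBX3 and RBM3.

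In Kedah-Kelantan against Holstein Friesian, the comparison of the heat-tolerant with the heat-vulnerable breed, none of the 4 genes passed edgeR's quasi-likelihood test at a Benjamini-Hochberg adjusted p under 0.05. Only 1 of 13455 genes tested passed (0.00743%). CIRBP was higher in both Kedah-Kelantan libraries, by a log2 fold change of 0.39 (SE 0.31, 95% interval -0.39 to 1.17, adjusted p = 0.995), though its gap to Holstein Friesian replicate 1 was under 1 CPM. YBX1 was lower in both Kedah-Kelantan libraries than in both Holstein Friesian libraries, by -0.36 (SE 0.17, interval -0.79 to 0.07, adjusted p = 0.995). Libraries that did not overlap were common in this comparison, with 18.1% of genes higher and 12.6% lower in Kedah-Kelantan in this way. RBM3 had a log2 fold change of -0.23 (SE 0.47, interval -1.41 to 0.95), and YBX3 had -0.18 (SE 0.21, interval -0.71 to 0.36), both with overlapping libraries. The intervals leave room for a CIRBP level in Kedah-Kelantan between 0.766 and 2.26 times that in Holstein Friesian, and for an RBM3 level between 0.377 and 1.93 times. No member had an unadjusted p under 0.05, against 4.04% of all genes.

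Which Holstein Friesian library was used decided the values of CIRBP and RBM3 in this comparison. With Holstein Friesian represented by replicate 2 alone, CIRBP was 1.89-fold higher in Kedah-Kelantan (log2 0.92, SE 0.14, edgeR adjusted p = 0.00326) and RBM3 was 1.61-fold higher (log2 0.69, SE 0.14, adjusted p = 0.0107). With replicate 1 alone, the CIRBP difference was -0.03 (SE 0.13, adjusted p = 0.919) and RBM3 was lower in Kedah-Kelantan (log2 -0.83, SE 0.13, adjusted p = 0.00532). RBM3 was thus called in opposite directions by the 2 fits. In these fits the lone library is assumed to vary like the other breeds, and 6.8% of all genes passed as higher with replicate 2 alone and 5.35% as lower with replicate 1 alone. YBX1 kept its direction, at -0.29 with replicate 2 alone and -0.46 with replicate 1 alone (adjusted p = 0.179 and 0.053). YBX3 was 0.05 with replicate 2 alone and -0.41 with replicate 1 alone, neither a call.

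Brangus against Holstein Friesian gave the smallest differences for the Y-box genes. All 4 log2 fold changes were positive, and none passed, with 1 of 13455 genes passing in all (0.00743%). They were 0.34 for CIRBP (SE 0.31, interval -0.44 to 1.12, edgeR adjusted p = 0.748) and 0.32 for RBM3 (SE 0.47, interval -0.86 to 1.5, adjusted p = 0.839). For YBX1 the value was 0.08 (SE 0.17, interval -0.35 to 0.51) and for YBX3 it was 0.05 (SE 0.21, interval -0.49 to 0.59), and both turned negative, to -0.03 and -0.07, with total counts as the only scaling. For every member the libraries of the 2 breeds overlapped, while 34.3% of all genes did not overlap. With Holstein Friesian replicate 2 alone, CIRBP and RBM3 were higher in Brangus, by 0.86 and 1.23 on the log2 scale (adjusted p = 0.00269 and 0.000511, where 14.5% of genes passed as higher). With replicate 1 alone all 4 values were negative, from -0.27 for RBM3 to -0.03 for YBX1, and none passed, against 6.06% of all genes.

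**Figure D2:**
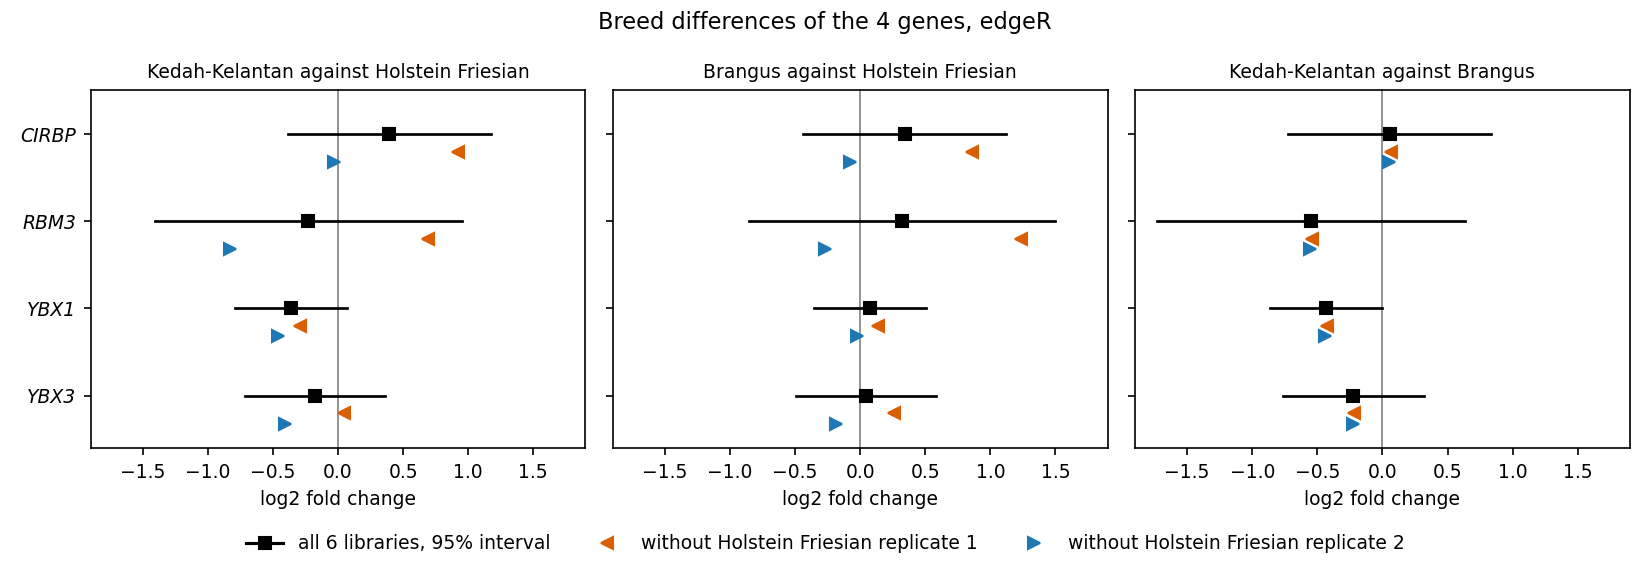
Log2 fold change (horizontal axes) of the 4 genes (rows) in the 3 breed comparisons; black squares and lines are edgeR's estimate and 95% interval with all 6 libraries, and triangles are the estimates without Holstein Friesian replicate 1 or 2. The triangles for RBM3 fall on opposite sides of 0 against Holstein Friesian (0.69 and -0.83 for Kedah-Kelantan), and nearly coincide at -0.54 and -0.55 in Kedah-Kelantan against Brangus.

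Kedah-Kelantan against Brangus, the comparison between the heat-tolerant and the intermediate breed, involved the pair of breeds with close replicates. RBM3 was at 91.6 ± 0.887 CPM in Kedah-Kelantan and 134 ± 0.652 CPM in Brangus, and YBX1 at 547 ± 41.5 CPM in Kedah-Kelantan and 739.9 ± 14.6 CPM in Brangus, so both were lower in Kedah-Kelantan. CIRBP was nearly level, at 125 ± 0.408 CPM in Kedah-Kelantan and 120.02 ± 4.84 CPM in Brangus, and YBX3 was at 73.7 ± 6.73 CPM in Kedah-Kelantan and 86.0 ± 10.9 CPM in Brangus. With all 6 libraries sharing 1 estimate of the spread, no member passed and neither did any other gene (0 of 13455, 0%, by edgeR; 1564 genes, or 11.6%, had an unadjusted p under 0.05, and DESeq2 called 663, or 4.93%). The log2 fold change was -0.55 for RBM3 (SE 0.47, interval -1.73 to 0.63, adjusted p = 0.68), and -0.44 for YBX1 (SE 0.17, interval -0.87 to -0.01, unadjusted p = 0.0481, adjusted p = 0.427). It was -0.22 for YBX3 (SE 0.21, interval -0.76 to 0.32) and 0.05 for CIRBP (SE 0.31, interval -0.72 to 0.83).

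When only the libraries of these 2 breeds were fitted, RBM3 and YBX1 passed. The log2 fold change was -0.54 for RBM3 (SE 0.10, interval -0.78 to -0.30, edgeR adjusted p = 0.0126) and -0.43 for YBX1 (SE 0.10, interval -0.67 to -0.19, adjusted p = 0.0268). In that fit 10.2% of all 13147 genes tested passed as lower and 9.09% as higher. CIRBP was 0.06 (SE 0.10, interval -0.18 to 0.30) and YBX3 was -0.22 (SE 0.14, interval -0.53 to 0.10), neither a call. RBM3 and YBX1 passed in the 3-breed fit when either Holstein Friesian library was left out, with edgeR adjusted p between 0.012 and 0.0315. In those fits 9.09% of all genes were called lower without replicate 1 and 9.62% without replicate 2. A lone Holstein Friesian library adds nothing to the spread between replicates. Those fits thus rest on the same Kedah-Kelantan and Brangus libraries as the 2-breed fit, and their calls are not further support. RBM3 and YBX1 did not pass by DESeq2 with all libraries fitted (adjusted p = 0.691 and 0.0924). The libraries of the 2 breeds did not overlap for CIRBP, RBM3 or YBX1, but this held for 64.1% of all genes (33.4% higher and 30.7% lower in Kedah-Kelantan). For CIRBP the gap was within counting error, at 124.3 CPM in Kedah-Kelantan replicate 1 and 123.4 CPM in Brangus replicate 1.

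The size of these differences depended on how libraries were scaled. TMM factors were 1.09 to 1.11 in Kedah-Kelantan and 0.914 to 0.924 in Brangus, and with total counts as the only scaling the median of all genes moved to 0.29. On that scale RBM3 was -0.29 and YBX1 -0.17, and neither passed even with only the 2 breeds fitted (adjusted p = 0.0774 and 0.234, where 27.3% of genes passed), an alternative chosen after seeing the data. YBX3 turned to 0.04 and CIRBP was 0.32. Relative to the median of all genes, RBM3 was at -0.57 and YBX1 at -0.46 under each of the 4 scalings tried. Rescaling moves all genes by nearly the same amount, so this sameness was fixed in advance and is not further support.

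A ratio of 2 genes within a library does not depend on scaling. CIRBP over RBM3, a ratio chosen after the values were seen, had FPKM ratios of 0.669 and 0.663 among Kedah-Kelantan libraries, 0.452 and 0.424 among Brangus libraries, and 0.383 and 0.568 among Holstein Friesian libraries. Both Kedah-Kelantan libraries had more CIRBP per RBM3 than any other library, by 1.52-fold over Brangus and 1.43-fold over Holstein Friesian on the geometric mean. An exact two-sided permutation test gave p = 0.333 in each case, which is the smallest value that 2 libraries against 2 can give. For a ratio chosen after the values were seen, that p cannot decide anything. Of single genes, 33.4% were higher in both Kedah-Kelantan libraries than in both Brangus libraries, and 18.1% than in both Holstein Friesian libraries. The share among ratios of 2 genes was not calculated. YBX1 over YBX3 had FPKM ratios of 9.91 and 9.69 among Kedah-Kelantan libraries, 12.6 and 10.3 among Brangus libraries, and 10.2 and 12.4 among Holstein Friesian libraries. Both Kedah-Kelantan libraries were thus the lowest of the 6, with a gap to the next library that is small beside the differences within Brangus and within Holstein Friesian.

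The replicate difference within Holstein Friesian was larger for the RNA recognition motif genes than for the Y-box genes. Replicate 2 minus replicate 1 was -1.47 on the log2 scale for RBM3 and -0.90 for CIRBP, against -0.41 for YBX3 and -0.13 for YBX1. Of the well-expressed genes, 11.7% differed at least as much as RBM3 between these replicates, 23.6% as much as CIRBP, 54.7% as much as YBX3 and 84.6% as much as YBX1. In Kedah-Kelantan and Brangus the same difference was at most 0.08 in size for CIRBP and 0.02 for RBM3, and it lay between 0.04 and 0.26 in size for the Y-box genes.

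Blood cell markers differed between the Holstein Friesian libraries as well. In replicate 2 minus replicate 1, all 12 B and plasma cell markers tested were lower (median log2 -3.55), and their summed level was 245 CPM in replicate 2 and 3283 in replicate 1. It was 2103 and 2251 CPM in Kedah-Kelantan and 3321 and 2855 in Brangus. All 10 monocyte markers were higher (median 4.10), with sums of 8410.5 CPM in replicate 2 and 1019 in replicate 1, and 10 of 11 neutrophil markers were higher (median 3.11), with sums of 8255 and 993 CPM. All 7 tested eosinophil, basophil and mast cell markers were higher (median 6.0), and all 9 platelet markers were higher (median 0.61). T cell markers were mixed, with 9 higher and 6 lower (median 0.40), as were erythroid markers, with 5 higher and 7 lower (median -0.74). The summed erythroid level went the other way from that median, at 284 CPM in replicate 2 and 108 in replicate 1. Of the gamma delta T cell markers 6 of 8 were lower (median -1.62), and of the NK and cytotoxic markers 10 of 16 (median -0.84). CIRBP and RBM3 were low in the library in which B cell markers were low and myeloid markers were high, and the part of the cell markers in their difference was not tested.

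**Figure D3:**
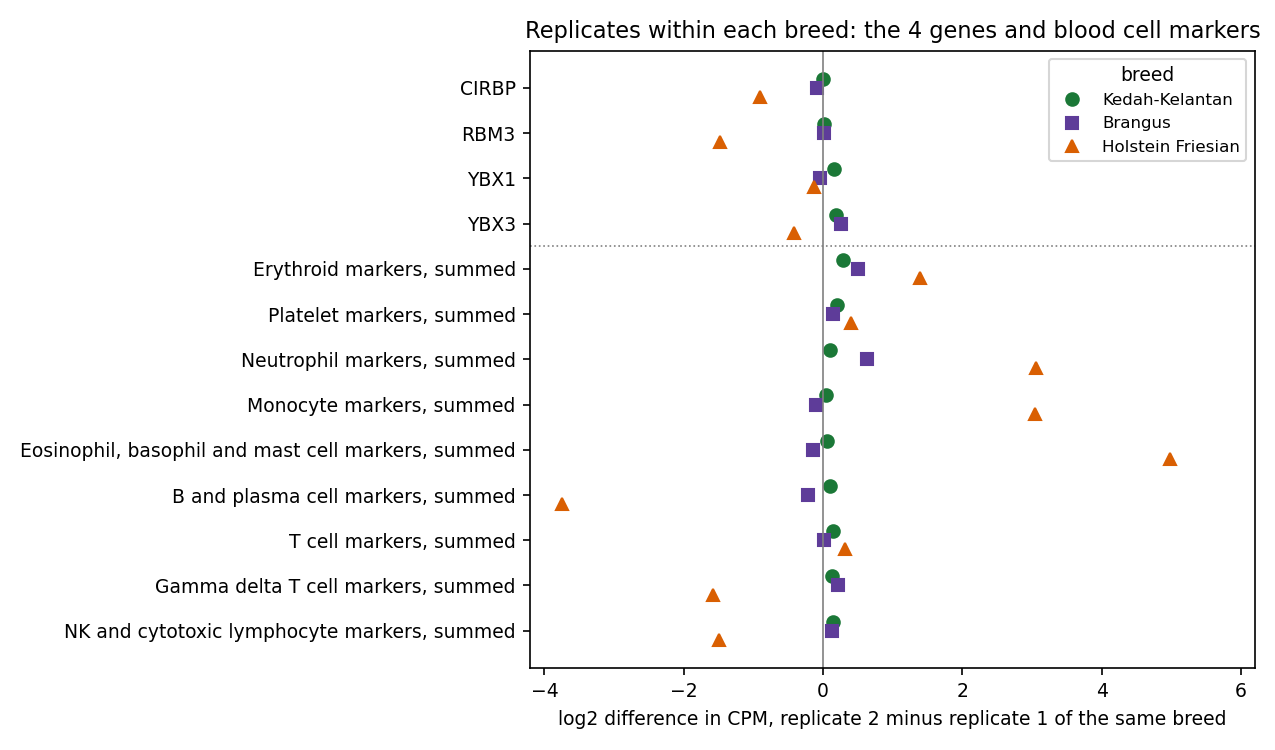
Log2 difference in CPM between replicate 2 and replicate 1 of the same breed (horizontal axis) for the 4 genes (top) and for the summed CPM of 9 lists of blood cell markers (below the dotted line), with circles for Kedah-Kelantan, squares for Brangus and triangles for Holstein Friesian. Holstein Friesian shows the widest difference for CIRBP, RBM3, YBX3 and all 9 marker sums, and for YBX1 (-0.13) it is no wider than in Kedah-Kelantan (0.15).

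Marker levels also differed between Kedah-Kelantan and Brangus. The summed platelet markers were 300.5 and 347 CPM in Kedah-Kelantan and 1288 and 1418 CPM in Brangus, and the erythroid sum was 173 and 211 CPM against 470.3 and 668 CPM. The eosinophil, basophil and mast cell sum was 445 and 461 CPM in Kedah-Kelantan and 46.9 and 42.4 CPM in Brangus, and the NK and cytotoxic sum was 1192 and 1320 CPM against 706 and 773 CPM. Among the erythroid markers, HBA1 and CA1 were at 0 counts in all libraries. B and plasma cell markers, given above, were also higher in both Brangus libraries. Of the neutrophil markers, 10 of 11 were lower in Kedah-Kelantan (median log2 fold change -0.67), with sums of 2585 and 2780 CPM in Kedah-Kelantan and 2979 and 4597 CPM in Brangus. Of the monocyte markers, 7 of 10 were higher in Kedah-Kelantan (median 0.41), with sums of 2419 and 2495 CPM in Kedah-Kelantan and 1943 and 1810.5 CPM in Brangus. T cell markers (10 higher and 5 lower, median 0.13) and gamma delta T cell markers (2 higher and 6 lower, median -0.14) differed less. RBM3 and YBX1 were high in the breed with high platelet, erythroid, neutrophil and B cell markers. The same breed had low summed monocyte, eosinophil, basophil and mast cell, and NK and cytotoxic markers. The part of these cells in the difference was not tested.

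Among other genes with a cold shock domain, CARHSP1, a small calcium-regulated cold shock domain protein, had 59.0 and 61.5 CPM in Kedah-Kelantan, 86.0 and 79.5 CPM in Brangus and 61.4 and 59.8 CPM in Holstein Friesian. Both Brangus libraries were higher than the other 4. Libraries of Brangus did not overlap with those of Kedah-Kelantan for 64.1% of all genes, or with those of Holstein Friesian for 34.3%. The log2 fold change of CARHSP1 in Kedah-Kelantan against Brangus was -0.46 (SE 0.15, edgeR adjusted p = 0.388). Fitted with these breeds only, it passed (-0.45, edgeR adjusted p = 0.0338, where 10.2% of all genes passed as lower). On total counts it did not pass as lower in that fit. CSDC2, a related RNA-binding protein, was near the detection limit, with 20 and 17 counts in the Kedah-Kelantan libraries, 0 counts in both Brangus libraries, and 8 and 4 counts in the Holstein Friesian libraries. YBX2, the germ cell Y-box gene, had 1 and 0 counts, 6 and 0 counts, and 2 and 0 counts, and LIN28A and LIN28B, regulators of let-7 microRNAs in stem cells, had 0 in every library.

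Heat-induced chaperones have genes switched on by the factor HSF1 and move opposite to CIRBP and RBM3 when cells are warmed. They were listed here together with HSF1 itself and the constitutive HSPA8. Most of the listed genes had negative fold changes in Kedah-Kelantan against Brangus, as RBM3 and YBX1 had. None of 11 passed with all libraries fitted (10 lower, 1 higher, median log2 fold change -0.42, against 0.02 over all genes), while 4 had an unadjusted p under 0.05, as had 11.6% of all genes. With only the 2 breeds fitted, 5 passed as lower and none as higher, against 10.2% and 9.09% of all genes. They were HSPE1, the mitochondrial chaperonin cofactor (-0.96), HSP90AA1, an HSP90 chaperone (-0.62), HSPA8, the constitutive HSP70 (-0.50), HSPH1, an HSP110 chaperone (-0.50), and HSPD1, the mitochondrial chaperonin (-0.42). With only the 2 breeds fitted on total counts, 2 of these passed, HSPE1 and HSP90AA1, and the split became 7 lower and 4 higher (median -0.16). Relative to the median of all genes, which that scaling moved, the list's median in the 2-breed fit was -0.44 with it and -0.45 without it. Such closeness follows from rescaling all genes alike and is not further support. HSPE1, HSPA8, HNRNPA1 and RBM8A have near-identical copies in many mammals, so their read assignment is uncertain. HSPE1 had 40.0 and 48.1 CPM in Kedah-Kelantan, 81.3 and 90.5 CPM in Brangus and 60.6 and 40.8 CPM in Holstein Friesian.

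The stress-inducible HSPA1A and the factor HSF1 were nearest to 0 among the 10 lower genes. HSPA1A, an HSP70 gene with near-identical copies and so of uncertain read assignment, had 151 and 166 CPM in Kedah-Kelantan, 164 and 172 CPM in Brangus and 111 and 208 CPM in Holstein Friesian. Its Holstein Friesian libraries were the lowest and the highest, with replicate 2 high where RBM3 was low. HSF1 was level, at 31.2 and 37.3 CPM, 37.8 and 34.4 CPM, and 31.7 and 30.6 CPM in the same order. For HSPA1A the log2 fold change in Kedah-Kelantan against Brangus was -0.09 (SE 0.31) and for HSF1 it was -0.07 (SE 0.18). Both turned positive on total counts, where the median of all genes rose from 0.02 to 0.29.

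**Figure D4:**
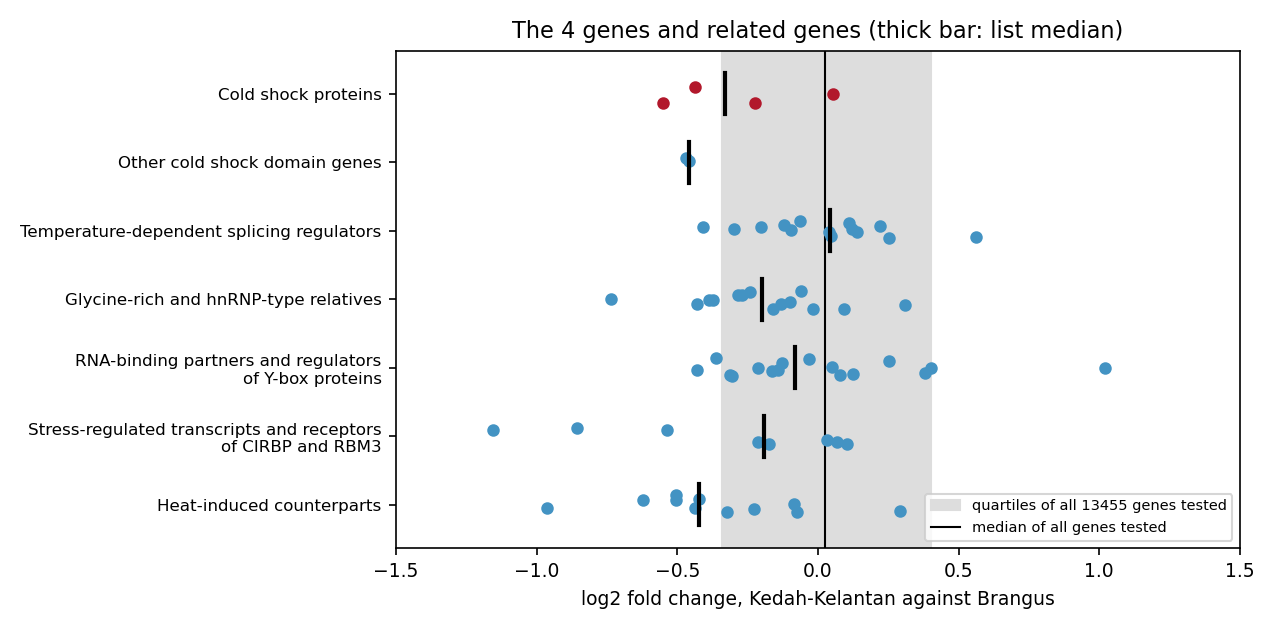
Log2 fold change in Kedah-Kelantan against Brangus (horizontal axis) of the 4 genes (top row) and of 6 lists of related genes, 1 point per gene with a thick bar at the list median; the grey band spans the quartiles of all 13455 genes (-0.34 to 0.40) and the thin line their median. The medians of the 4 genes (-0.33), the other cold shock domain genes (-0.46) and the heat-induced genes (-0.42) lie furthest to the left of the median of all genes (0.02). Of the 6 other cold shock domain genes only 3 were tested, and their median is the value of CARHSP1. The medians of 3 other lists lie to the left by less, that of the splicing regulators (0.04) lies to the right, and CSDC2 lies beyond the axis.

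Glycine-rich and hnRNP-type RNA-binding proteins, the relatives of CIRBP and RBM3, had 14 tested genes. Between Kedah-Kelantan and Brangus, 12 had a negative fold change and 2 a positive one (median -0.20, none called), although on total counts the split was 6 lower and 8 higher. The median relative to all genes was -0.22 on both scales, which rescaling all genes alike fixes in advance. With only these breeds fitted, 3 passed as lower, against 10.2% of all genes: RBM8A (-0.73), part of the exon junction complex, HNRNPA1 (-0.42) and HNRNPA2B1 (-0.37), splicing and mRNA transport factors. On total counts in that fit RBM8A passed as lower and the other two did not. RBM8A had 68.0 and 63.0 CPM in Kedah-Kelantan, 110.09 and 108 CPM in Brangus and 98.95 and 63.6 CPM in Holstein Friesian. HNRNPAB, the other named member, was -0.39 (SE 0.19, edgeR adjusted p = 0.495).

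None of 14 splicing regulators whose activity changes with temperature was called in any comparison with all libraries fitted. Against Holstein Friesian, 12 were higher and 2 lower in Kedah-Kelantan (median 0.12), and 11 were higher and 3 lower in Brangus (median 0.17). Of all genes, 46.5% were higher in Kedah-Kelantan and 47.3% in Brangus. The splits depended on the Holstein Friesian library. With replicate 1 alone, 8 were higher and 6 lower in Kedah-Kelantan (median 0.09), and 7 higher and 7 lower in Brangus (median -0.001). With replicate 2 alone, 11 were higher and 3 lower in Kedah-Kelantan (median 0.27), and 10 higher and 4 lower in Brangus (median 0.13). Between Kedah-Kelantan and Brangus, 8 of the 14 tested had a positive fold change and 6 a negative one (median 0.04), and on total counts 12 were higher. SRSF5 was 219 and 217 CPM in Kedah-Kelantan, 145 and 149.8 CPM in Brangus and 185 and 171 CPM in Holstein Friesian, so the Kedah-Kelantan libraries were highest. Of all genes, 33.4% were higher without overlap in Kedah-Kelantan than in Brangus, and 18.1% than in Holstein Friesian. SRSF5 passed as higher with only the 2 breeds fitted (0.57, edgeR adjusted p = 0.0105) and SRSF3 as lower (-0.40, adjusted p = 0.0326), where 9.09% of all genes passed as higher and 10.2% as lower. On total counts in that fit 5 splicing regulators passed as higher and SRSF3 did not pass. CLK1, the kinase that acts as a body temperature sensor for SR proteins in mammalian cells, had 290.3 and 280.3 CPM in Kedah-Kelantan, 231 and 248 CPM in Brangus and 145 and 255 CPM in Holstein Friesian. It was lowest in Holstein Friesian replicate 1, and passed in no comparison with all libraries fitted. SRSF2 was 0.28 (SE 0.17) in Kedah-Kelantan against Holstein Friesian, also without a call.

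Partners and regulators of the Y-box proteins did not move as a group in Kedah-Kelantan against Brangus, with 7 higher and 9 lower of 16 tested (median -0.08, none called), and 12 higher and 4 lower on total counts. PABPC1, the poly(A)-binding protein found with YBX1 on messenger RNA, was -0.43 (SE 0.21, edgeR adjusted p = 0.488) and passed as lower with only the 2 breeds fitted (-0.42, adjusted p = 0.0213), while IGF2BP3, an RNA-binding protein that stabilises messenger RNA (1.03, adjusted p = 0.0466), and RPS6KA1, an RSK kinase (0.39, adjusted p = 0.0491), passed as higher. On total counts in that fit 4 of the list passed as higher and none as lower, so the PABPC1 call was lost. PABPC4, a second poly(A)-binding protein, was -0.31 (SE 0.15). RPS6KA3, a further RSK kinase, of the family that phosphorylates YBX1, was lowest in Brangus at 112 and 105 CPM in Kedah-Kelantan, 85.1 and 96.8 CPM in Brangus and 148 and 133 CPM in Holstein Friesian. Of all genes, 64.1% did not overlap between Brangus and Kedah-Kelantan, and 34.3% did not between Brangus and Holstein Friesian. The log2 fold change of RPS6KA3 in Brangus against Holstein Friesian was -0.63 (SE 0.16, edgeR unadjusted p = 0.0107, adjusted p = 0.645), where 7.62% of all genes had an unadjusted p under 0.05.

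Transcripts and receptors tied to CIRBP and RBM3 under stress numbered 8 tested of 9. They include TLR4 and LY96, the receptor pair to which extracellular CIRBP binds in mouse and human cells, and RTN3, a reticulon that RBM3 is known to regulate in mouse neurons. Between Kedah-Kelantan and Brangus, 3 had a positive fold change and 5 a negative one (median -0.19, none called; 5 and 3 on total counts), and LY96 was at 28.3 and 27.4 CPM in Kedah-Kelantan, 59.6 and 64.6 CPM in Brangus and 24.6 and 57.3 CPM in Holstein Friesian. LY96 passed as lower with only the 2 breeds fitted (-1.15, edgeR adjusted p = 0.00179), as did RPA2, a DNA replication protein whose messenger RNA CIRBP binds (-0.53, adjusted p = 0.034), and TREM1, a receptor of myeloid cells (-0.85, adjusted p = 0.0293). On total counts in that fit LY96 alone of the list passed. RTN3 had 147 and 155 CPM in Kedah-Kelantan, 146 and 149.5 CPM in Brangus and 133 and 301 CPM in Holstein Friesian. TLR4 was at 44.4 and 47.6 CPM, 29.4 and 58.3 CPM, and 18.7 and 127 CPM in the same order. RTN3 and TLR4 were thus highest in Holstein Friesian replicate 2, the library with the lowest CIRBP and RBM3 and the highest monocyte and neutrophil markers.

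Against Holstein Friesian none of these related lists had a called member in either comparison with all libraries fitted, and their medians ranged from -0.54 to 0.12 for Kedah-Kelantan and from -0.21 to 0.29 for Brangus. For the heat-induced genes the median in Brangus against Holstein Friesian was 0.29, and it was 0.35 with either Holstein Friesian library alone. The lowest medians in both comparisons were those of the stress-related transcripts and receptors, and they depended on the library. With replicate 2 alone they were -1.02 for Kedah-Kelantan and -0.55 for Brangus, and with replicate 1 alone 0.14 and 0.77. For the glycine-rich and hnRNP-type genes in Kedah-Kelantan against Holstein Friesian it was 0.20 with replicate 2 alone and -0.30 with replicate 1 alone, a change of sign that RBM3 showed as well.

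The genes whose levels were most like each member over the 6 libraries were taken by Pearson's correlation of log2 CPM among 7391 genes, as a description in which each breed gives 2 of the 6 points. For CIRBP they included SLC9B2, a sodium/proton exchanger (r = 0.997), and GCDH, glutaryl-CoA dehydrogenase (r = 0.995). SLC9B2 had 146 and 137 CPM in Kedah-Kelantan, 154 and 104 CPM in Brangus and 168 and 8.86 CPM in Holstein Friesian. SLC9B2 was thus lowest in Holstein Friesian replicate 2, as CIRBP was. For RBM3 they were PDGFD, a platelet-derived growth factor (r = 0.998), UBE3A, a ubiquitin ligase (r = 0.997), and CETN3, a centrin (r = 0.996), and PDGFD had 16.3 and 16.3 CPM, 28.2 and 30.5 CPM, and 40.8 and 7.95 CPM in the same breed order.

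For YBX1 the most alike were SCP2, sterol carrier protein 2 (r = 0.996), BZW1, a translation regulator (r = 0.991), and PDIA6, an endoplasmic reticulum disulfide isomerase (r = 0.988). SCP2 had 252 and 271 CPM in Kedah-Kelantan, 362 and 347 CPM in Brangus and 358 and 323 CPM in Holstein Friesian, low in Kedah-Kelantan as YBX1 was. For YBX3 they were GET3, an ATPase that delivers tail-anchored proteins (r = 0.984), VPS37A, a subunit of ESCRT-I (r = 0.984), and ITPA, inosine triphosphatase (r = 0.982). Among the members themselves r was 0.79 for RBM3 and YBX3, 0.78 for CIRBP and RBM3, 0.67 for YBX1 and YBX3, 0.50 for RBM3 and YBX1, 0.38 for CIRBP and YBX3, and -0.11 for CIRBP and YBX1. Many of the 7391 genes had a higher r than these. RBM3 ranked 500 for YBX3, and YBX3 ranked 1530 for RBM3. RBM3 ranked 957 for CIRBP, and CIRBP ranked 1593 for RBM3. YBX3 ranked 1215 for YBX1, and YBX1 ranked 1255 for YBX3.

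A test of any difference among the 3 breeds called no gene (0 of 13455, 0%, by edgeR; 1107 genes, or 8.23%, had an unadjusted p under 0.05). Its unadjusted p was 0.102 for YBX1, 0.451 for CIRBP, 0.533 for RBM3 and 0.585 for YBX3, and the adjusted p was 0.666, 0.82, 0.844 and 0.86 in that order. DESeq2 called 625 genes (4.65%) in the same test and none of the 4 (smallest adjusted p = 0.156, for YBX1).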

How the data were processed

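Whole-blood RNA of cows of 3 breeds was sequenced in 6 libraries, 2 per breed. The deposited counts are whole-number reads per gene, not normalised. The deposited FPKM values are the authors' counts divided by gene length and by library total. For 2463 genes, counts over FPKM matched the ratio of the totals to within 0.0414%. Per the submitters' processing notes, the genome build was ARS-UCD1.2 and the tools were HISAT2 2.2.1, Trimmomatic 0.39, FastQC 0.11.9, DESeq2 1.38.0 and featureCounts 2.0.1. Whether counting used strand is not given in the sources used here.

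Counts were fitted with edgeR 4.0.16 in R 4.3.3 (TMM, filterByExpr, robust quasi-likelihood fit over all 6 libraries, breed as the only term, 3 residual degrees of freedom). Benjamini-Hochberg adjustment ran over all 13455 tested genes. Positive log2 fold changes are higher in the breed named first, the SE is the log2 fold change over the square root of F, and intervals are 95%. DESeq2 1.42.0 and limma 3.58.1 on log2(FPKM + 1) and log2(FPKM + 0.1), other scalings and filters, a replicate block and left-out libraries were alternatives. The fits were tested on simulated counts.

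The members, the lists of related genes and cell markers, and the tests were chosen with earlier results of these data known. Named genes were the 4 members, the 3 genes per related list with the smallest any-breed p, HSPA1A, HSF1 and HSPA8, and the 3 genes most correlated with each member (mean log2 CPM of at least 4, no LOC symbols). Of these, 2 genes are not reported here. HSPD1, HSPH1, HNRNPA2B1, SRSF3, IGF2BP3, RPS6KA1, TREM1, TLR4, YBX2, LIN28A, LIN28B and the LOC genes were added after their values were seen. Positions are the authors', and chromosome names follow from their accessions. Of 16289 genes shared with a Bos indicus gene table (assembly NIAB-ARS_B.indTharparkar_mat_pri_1.0), 99.8% had the same chromosome name. Intervals for single counts cover counting error only, since PCR reads that carry no molecular identifiers are not independent.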

Additional observations from a re-analysis of the deposited data

How the results depend on the processing

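The 12 differences of the 4 genes were each recomputed under 17 or 18 alternatives, which gave 208 recomputed values in all. Of these values 178 kept direction and side of the threshold, 20 changed sign and 10 gained a call in the same direction. Of the sign changes 1 was also a call, RBM3 in Kedah-Kelantan against Holstein Friesian without Holstein Friesian replicate 1 (0.69). With total counts only, YBX1 and YBX3 in Brangus against Holstein Friesian were -0.031 and -0.068 (log2), and YBX3 in Kedah-Kelantan against Brangus was 0.0395, also with only these breeds fitted (0.0392, chosen after seeing the data). With limma on log2(FPKM + 1) RBM3 in Kedah-Kelantan against Holstein Friesian was 0.11, YBX1 and YBX3 in Brangus against Holstein Friesian were -0.0246 and -0.045, and YBX3 in Kedah-Kelantan against Brangus was 0.0412. With log2(FPKM + 0.1) these were 0.11, -0.0246, -0.0455 and 0.0422. None of the sign changes under these scalings and tools was a call, and their cause was not tested. With only the 2 breeds fitted, RBM3 and YBX1 in Kedah-Kelantan against Brangus were called (-0.54 and -0.43).

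Leaving out 1 library in turn, Kedah-Kelantan against Holstein Friesian ranged from -0.0298 to 0.92 for CIRBP, -0.83 to 0.69 for RBM3, -0.46 to -0.28 for YBX1 and -0.41 to 0.048 for YBX3. Brangus against Holstein Friesian ranged from -0.082 to 0.86 for CIRBP, -0.27 to 1.23 for RBM3, -0.027 to 0.14 for YBX1 and -0.18 to 0.26 for YBX3. Kedah-Kelantan against Brangus ranged from 0.02 to 0.09 for CIRBP, -0.56 to -0.53 for RBM3, -0.51 to -0.35 for YBX1 and -0.35 to -0.08 for YBX3. The extremes against Holstein Friesian for CIRBP and RBM3 came from leaving out 1 of its own libraries.

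The count of genes called in Kedah-Kelantan against Holstein Friesian was 0 with a mean count of at least 50, the replicate block or only the 2 breeds, 131 by DESeq2, 2 by limma on log2(FPKM + 1), and 0 to 2464 without 1 library. In Brangus against Holstein Friesian it was 0 with DESeq2's size factors, a mean count of at least 50, the replicate block or only the 2 breeds, 307 by DESeq2, 3 by limma on log2(FPKM + 0.1), and 0 to 4395 without 1 library. In Kedah-Kelantan against Brangus it was 663 by DESeq2, 1 by limma on log2(FPKM + 1), 2537 with only the 2 breeds (1195 higher, 1342 lower), 3587 with these and total counts only (2929 higher, 658 lower), and 0 to 2458 without 1 library. For any breed difference it was 1 with no filter, 625 by DESeq2, 2 and 1 by limma with the larger and the smaller pseudocount, and 0 to 4783 without 1 library. The labels do not say whether libraries with the same replicate number were paired. Replicate differences correlated at 0.081 between Kedah-Kelantan and Brangus, -0.03 between Kedah-Kelantan and Holstein Friesian and 0.247 between Brangus and Holstein Friesian, over 7592 genes. With 1 such difference per breed, these values cannot settle it. With 2 libraries per breed, changes smaller than the intervals given cannot be seen.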
